A study of Mus musculus with 4 samples.

Results

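The 10 genes described here encode regulators and structural proteins of skeletal muscle, and they were selected by gene symbol from the 52636 genes counted in each library. They comprise 4 myogenic regulatory factors (*Myod1*, *Myog*, *Myf5* and *Myf6*) and 6 structural genes (*Actc1*, *Acta1*, *Des*, *Tnnc1*, *Tnnt1* and *Myl1*). RNA-seq was performed on tdTomato+ cells sorted by FACS from mouse embryonic kidneys, with 2 control and 2 *Eya1*cKO libraries. Controls carried *Eya1*CreER and the *R26*-tdTomato reporter, and *Eya1*cKO embryos carried in addition *Eya1* fl/fl, so that both genotypes had the CreER allele and received tamoxifen. Kidneys were taken 48 h after tamoxifen was first given, between embryonic days 12 and 13, and each library was made from 5000 sorted cells. CreER was driven by the *Eya1* locus, so that the reporter marks cells in which this locus was active, and their descendants. The cell suspensions of a genotype had been combined and the libraries came from separate portions sorted at the same time, so that *P* values measure the spread between these portions only. The comparison made here is of the levels of these muscle genes between the genotypes.

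Skeletal muscle forms from mesodermal progenitors in which the myogenic regulatory factors, basic helix-loop-helix transcription factors that bind E-box DNA as dimers with E proteins, switch on the contractile genes. *Myf5* and *Myod1* commit cells to the lineage, *Myog* drives terminal differentiation and *Myf6* (also called Mrf4) acts in both commitment and differentiation. The contractile proteins assemble into sarcomeres, in which actin and myosin filaments slide past each other under control of the troponin complex. The kidney has no skeletal muscle of its own, but desmin is also used by its smooth muscle and mesangial cells.

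Gene counts summed to 35411905 and 37999342 in the controls and to 22239293 and 17457452 in *Eya1*cKO. Throughout, the first value of a pair is library 1 of that genotype and the second is library 2. Reads on no gene made up 13.9% and 12.9% of recorded reads in the controls and 22.7% and 20.9% in *Eya1*cKO. Levels are given in CPM, the counts scaled to the size of the library after TMM normalization, and 3 counts, taken here as the limit of detection, corresponded to 0.0859 and 0.0801 CPM in control 1 and 2 and to 0.133 and 0.171 CPM in *Eya1*cKO 1 and 2. Such limits cover counting error only, because reads copied by PCR are not independent molecules. *Eya1* itself had 6612 and 6420 reads in the controls and 377 and 219 in *Eya1*cKO, so that the targeted gene was lower in both libraries labelled as mutant. All 8 nephron progenitor markers examined were read in every library, and their summed level was 1598 and 1600 CPM (controls) against 261 and 248 CPM (*Eya1*cKO).

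The promoters of the filament genes *Des*, *Actc1* and *Acta1* are shown because they hold elements of kinds that muscle regulators are known to bind. Each is the 250 bases before the RefSeq start of the gene (GRCm38.p6), read on the gene's strand, with CAGCTG, 1 form of the E-box, and the CArG box, the serum response factor element, in capitals. The RefSeq starts differ from those of the gene models used for positions below, so the windows need not end at them. The *Des* window is chr1:75360042-75360291 (plus strand), the *Actc1* window chr2:114052876-114053125 (minus strand) and the *Acta1* window chr8:123894776-123895025 (minus strand).
Des: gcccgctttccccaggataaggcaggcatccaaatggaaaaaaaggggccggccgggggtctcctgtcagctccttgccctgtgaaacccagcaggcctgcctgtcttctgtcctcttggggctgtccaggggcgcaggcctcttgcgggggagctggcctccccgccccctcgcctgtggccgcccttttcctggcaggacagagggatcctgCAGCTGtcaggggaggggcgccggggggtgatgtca
Actc1: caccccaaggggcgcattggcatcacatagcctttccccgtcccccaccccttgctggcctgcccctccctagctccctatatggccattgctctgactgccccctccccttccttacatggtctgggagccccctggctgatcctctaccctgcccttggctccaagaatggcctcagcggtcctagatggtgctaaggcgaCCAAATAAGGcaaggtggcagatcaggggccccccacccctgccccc
Acta1: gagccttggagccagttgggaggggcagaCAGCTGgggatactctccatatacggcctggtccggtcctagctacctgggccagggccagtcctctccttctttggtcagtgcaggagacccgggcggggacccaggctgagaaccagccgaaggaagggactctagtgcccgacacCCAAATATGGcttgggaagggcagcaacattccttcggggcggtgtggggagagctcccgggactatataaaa
The E-box of *Des* begins 36 bases before the start, the CArG box of *Actc1* 47 bases before it, and *Acta1* has an E-box 221 bases and a CArG box 73 bases before it. RefSeq promoter sequence was matched for 8 of the 10 members, all except *Myod1* and *Myf6*. The E-box CAGCTG, which reads the same on both strands, was present in 3 of these 8 promoters (*Des*, *Acta1* and *Myl1*) and in 12.8% of 27025 promoters of equal length. The CArG box was present in 2 of the 8 and in 1.40% of all promoters, and the MEF2 site in 0 of the 8 and in 3.01%. Myogenic factors bind E-boxes of the general form CANNTG, and its other forms, which the windows of these and other members may also hold, are neither counted nor capitalised. The motifs were searched on both strands, did not overlap in these windows and are descriptions of sequence, not evidence of binding.

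The myogenic regulatory factors were almost unread, and no library contained reads of more than 1 of them above the limit of detection. *Myf5* (chromosome 10, 107482908 to 107486134, GRCm38), the earliest factor of the lineage, had 0 reads in all 4 libraries, which allows at most 0.0859, 0.0801, 0.133 and 0.171 CPM. *Myod1* (chromosome 7, 46376474 to 46379099) had 5 reads in control 1 and 0 in control 2, *Eya1*cKO 1 and *Eya1*cKO 2. At the mean level of the controls, only 1.62 and 1.26 reads of *Myod1* would be expected in the *Eya1*cKO libraries, so that a fall was not detectable at this depth.

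*Myog* (chromosome 1, 134289989 to 134292548), the differentiation factor, had 0 and 2 control reads, against 65 and 0 in *Eya1*cKO. *Myf6* (chromosome 10, 107492853 to 107494737) had 0 reads in control 1, control 2 and *Eya1*cKO 1 and 30 in *Eya1*cKO 2. The *Eya1*cKO reads of each factor thus came from a single library, a different one for each, and the genotypes overlapped because the other *Eya1*cKO library had none. The level was 2.88 CPM for *Myog* in *Eya1*cKO 1 and 1.71 CPM for *Myf6* in *Eya1*cKO 2. All 4 factors were removed by edgeR's filter on low counts and were not tested. In fits without that filter, the adjusted *P* was 0.35 for *Myog* and 0.44 for *Myf6* in edgeR, and 0.17 and 0.19 in DESeq2. Each was under the threshold when the *Eya1*cKO library without its reads was left out (edgeR adjusted *P* = 0.0014 and 0.012). Those fits hold 1 *Eya1*cKO library, take their spread from the controls and called 7925 and 7414 genes in all, so that they carry no weight for either gene.

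Such one-sided reads were not restricted to muscle genes. Of the 5780 genes with 20 to 100 reads over the 4 libraries, 303 had at least 95% of them in *Eya1*cKO 1 and 180 in *Eya1*cKO 2, as did 157 in control 1 and 117 in control 2. For *Myog* this share was 97.0% and for *Myf6* 100%. The 3 lists of other muscle genes described further on hold 41 genes with 20 to 300 reads. Those with over 50% of their reads in 1 library numbered 6 for control 1 (14.6%) and 15 for control 2 (36.6%). They numbered 9 for *Eya1*cKO 1 (22.0%) and 4 for *Eya1*cKO 2 (9.76%). Of all 9004 genes with as many reads, the shares were 16.6%, 18.2%, 18.2% and 12.4% in the same order. Examples from both sides follow, chosen after their values were seen. *Myot*, which encodes the Z-disc protein myotilin, had 25 and 3 control reads against 174 and 0. *Dok7*, an activator of the kinase MuSK at the neuromuscular junction, had 26 and 36 against 213 and 7. The Z-disc genes *Ldb3* and *Myoz1* had 13 and 5 against 72 and 13, and 10 and 17 against 58 and 0. None of these 4 genes passed the test (edgeR adjusted *P* from 0.10 to 0.33). *Myl4*, an atrial and embryonic myosin light chain, had 21 and 16 control reads against 1 and 127, most of them in *Eya1*cKO 2 (edgeR adjusted *P* = 0.26). On the control side, *Pax3* had 1 and 53 control reads and *Ckm* 9 and 51, each against 0 and 0 in *Eya1*cKO. *Tnni1* and *Casq1* did not have over 50% of their reads in 1 library but were lower in both *Eya1*cKO libraries. *Tnni1*, the slow troponin I gene, had 364 and 294 control reads against 74 and 11. *Casq1*, which encodes the calcium store protein calsequestrin, had 92 and 92 against 2 and 13. Neither *Tnni1* nor *Casq1* passed the test (edgeR adjusted *P* = 0.10 and 0.13).

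**Figure D1:**
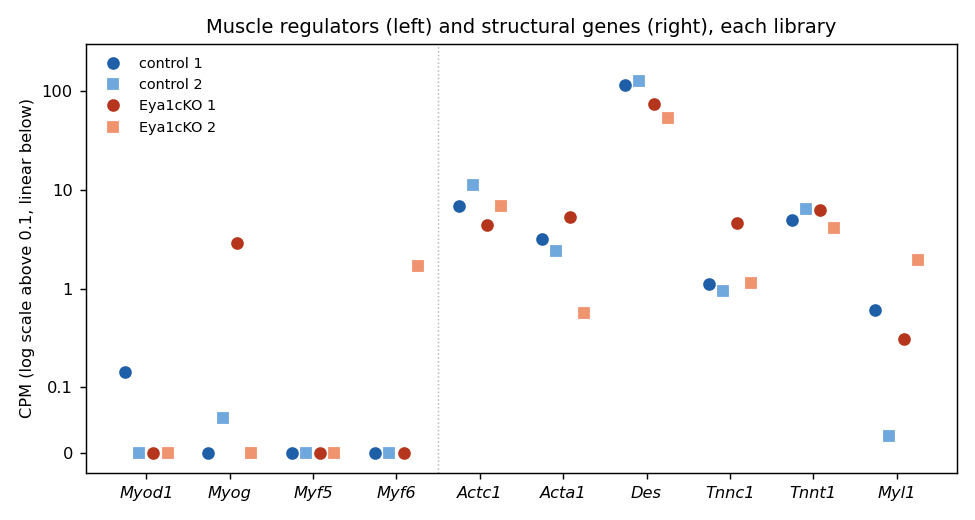
Level of each of the 10 genes in the 4 libraries, in CPM (logarithmic above 0.1, linear below, so that 0 can be drawn), with control libraries in blue, *Eya1*cKO libraries in red, circles for library 1 and squares for library 2. *Des* lies far above the others, between 54.0 and 125 CPM, and the regulators to the left of the dotted line are at or near 0 except *Myog* in *Eya1*cKO 1 and *Myf6* in *Eya1*cKO 2.

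All 6 structural genes passed the filter, and 1 of them, *Des*, had an adjusted *P* under 0.05 in edgeR, with the lower level in *Eya1*cKO. With 2 libraries a genotype, missing the threshold does not show that the other 5 were unchanged, and *Tnnc1* and *Myl1* had larger fitted ratios with larger errors. Of the 19041 genes tested across the genome, 9.56% were called, 4.41% as lower and 5.15% as higher in *Eya1*cKO. The 6 genes had a median log2 ratio of 0.08, beside 0.02 for all genes tested, and 3 of the 6 were positive and 3 negative.

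*Des* (chromosome 1, 75360329 to 75368579, plus strand, 8 exon blocks) encodes desmin, the intermediate filament that links sarcomeres in striated muscle and is also present in smooth muscle and mesangial cells. Its counts were 4017 and 4695 (controls) against 1677 and 947 (*Eya1*cKO). This corresponded to 115 and 125 CPM against 74.2 and 54.0 CPM. Both *Eya1*cKO libraries were below both controls, with *Eya1*cKO 2 the lowest, and 53.3% of the control mean remained. The mean was 120 ± 7.32 CPM in the controls and 64.1 ± 14.3 CPM in *Eya1*cKO (SD, n = 2 libraries each). The log2 ratio of *Eya1*cKO to control was -0.89 with an SE of 0.16 and an edgeR adjusted *P* of 0.020. With the replicate number of the labels as a block, the edgeR adjusted *P* was 0.081. In edgeR's legacy fit the adjusted *P* was 0.051, and with control 1 or control 2 left out it was 0.37 and 0.48, with log2 fold changes of -0.97 and -0.84. Each of these last fits has 1 control, takes its spread from the *Eya1*cKO libraries and called 23 genes in all. Exons of the antisense gene *Gm15179* cover 5.86% of the exonic length of *Des*, and this gene had 3 reads in control 1 and 0 in the other libraries. In bulk samples, fewer cells of a type and less RNA per cell cannot be told apart.

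*Actc1* (chromosome 2, 114047282 to 114053548, minus strand) encodes alpha-cardiac actin, which embryonic skeletal muscle also uses, and had the second highest mean level in both genotypes, although *Tnnt1*, *Acta1* and *Tnnc1* were above it in *Eya1*cKO 1. Its counts were 242 and 422 (controls) against 100 and 119 (*Eya1*cKO), or 6.93 and 11.3 CPM against 4.43 and 6.78 CPM. The highest *Eya1*cKO library lay just below the lowest control, and the log2 ratio, -0.75 with an SE of 0.53, missed the threshold (edgeR adjusted *P* = 0.39). *Acta1* (chromosome 8, 123891769 to 123894751, minus strand) encodes alpha-skeletal actin, the actin of adult skeletal muscle. Its counts were 110 and 89 (controls) against 121 and 10 (*Eya1*cKO), or 3.15 and 2.38 CPM against 5.35 and 0.570 CPM. The 2 *Eya1*cKO libraries stood on either side of the controls and 9.39-fold apart, so that the log2 ratio of 0.24 was smaller than its SE of 0.83 (edgeR adjusted *P* = 0.88). Without *Eya1*cKO 1 the ratio was -2.27.

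The 2 actins have very similar coding sequences, and it was therefore examined whether their reads could have been exchanged. Reads were 75 bases long, and 0 of the 1543 windows of that length in *Actc1* transcripts occur in a transcript of another gene in GENCODE M21. In *Acta1*, 6 of 1521 windows (0.39%) are shared, with *Actb* and the gene *Gm47692*. The longest exact run in common between the transcripts *Actc1*-201 (bases 1119 to 1147) and *Acta1*-201 (bases 1036 to 1064) has 29 bases, shown here because it is the longest stretch in which these genes cannot be told apart.
Shared run: ctggctcccagcaccatgaagatcaagat
Among the remaining members, windows were shared in *Des* (3.94%, with *Gm15179*) and in *Myl1* (8.08%, with the pseudogene *Mylf-ps*, which had 0 reads in every library).

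Neither troponin gene passed the test with all 4 libraries, and their ratios had opposite signs. *Tnnc1* (chromosome 14, 31208312 to 31211729, plus strand) encodes troponin C of slow skeletal and cardiac muscle, the calcium-binding subunit of the complex. Its counts were 39 and 35 (controls) against 104 and 20 (*Eya1*cKO), or 1.12 and 0.935 CPM against 4.60 and 1.14 CPM. The *Eya1*cKO 2 library was thus level with the controls and *Eya1*cKO 1 was 4.04-fold above it. The log2 ratio was 1.59 with an SE of 0.86 (edgeR adjusted *P* = 0.27). On leaving out single libraries it ran from 0.15 to 2.15. The highest value, without *Eya1*cKO 2, passed the threshold, but in a fit with 1 *Eya1*cKO library that takes its spread from the controls and called 7925 genes in all, so it carries little weight. *Tnnt1* (chromosome 7, 4504570 to 4516382, minus strand) encodes troponin T of slow skeletal muscle, which anchors the complex to tropomyosin. Its counts were 172 and 239 (controls) against 142 and 72 (*Eya1*cKO), or 4.93 and 6.38 CPM against 6.28 and 4.10 CPM. The genotypes overlapped, with a log2 ratio of -0.09 and an SE of 0.53 (edgeR adjusted *P* = 0.93).

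*Myl1* (chromosome 1, 66924295 to 66945404, minus strand) encodes the essential myosin light chain of fast skeletal muscle and had the fewest reads of the structural genes over all libraries, though not in *Eya1*cKO 2, where *Tnnc1* and *Acta1* had fewer. Its counts were 21 and 1 (controls) against 7 and 34 (*Eya1*cKO). Control 2 was nearly unread, control 1 lay between the *Eya1*cKO libraries, and the genotypes overlapped. Its log2 ratio was 1.73 with an SE of 1.39 (edgeR adjusted *P* = 0.44).

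**Figure D2:**
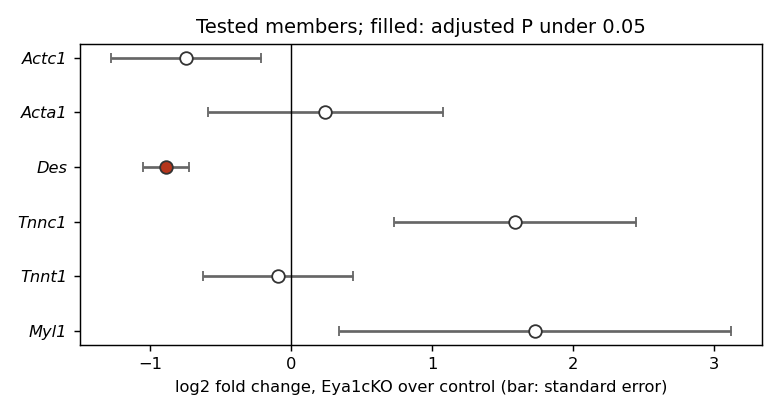
Log2 fold change (*Eya1*cKO over control, horizontal axis) of the 6 structural genes that were tested, with bars for the standard error and a filled point where the adjusted *P* in edgeR was under 0.05. *Des* alone is filled, at -0.89, and the bars of *Acta1* and *Tnnt1* cross 0.

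The groups did not overlap in 3 of the 6 genes, *Des* and *Actc1* being lower and *Tnnc1* higher in *Eya1*cKO. Of all genes tested, 55.3% did not overlap, 30.0% with *Eya1*cKO lower, so these counts are close to the background. The difference between the *Eya1*cKO libraries was above the median of genes with similar total reads for 4 of the 6 members and below it for *Actc1* and *Tnnt1*. The difference between the controls was also above its median for 4 of the 6, at 0.69 against 0.25 for *Actc1*, 2.47 against 0.78 for *Myl1*, 0.12 against 0.07 for *Des* and 0.37 against 0.30 for *Tnnt1*. Between the *Eya1*cKO libraries, *Acta1* differed by 3.03 on the log2(CPM + 0.1) scale, against a median of 1.32 for 1059 such genes. For *Des* the difference was 0.46 against a median of 0.24 for 1374 genes, and 19.9% of those differed more. For *Myl1* it was 2.31 against 1.53 for 1123 genes. For *Tnnc1* the difference was 1.92 against a median of 1.85 for 1238 such genes, for *Tnnt1* 0.60 against 0.95 for 1026, and for *Actc1* 0.61 against 0.79 for 1024.

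Per kilobase of exon, the order of the mean levels in the controls was *Des* (32.0 ± 1.95 CPM per kb), *Actc1* (5.62 ± 1.90), *Tnnt1* (2.57 ± 0.47), *Acta1* (1.80 ± 0.36), *Tnnc1* (0.985 ± 0.124) and *Myl1* (0.151 ± 0.196; SD, n = 2 libraries). The 2 control libraries of each gene did not overlap those of its neighbour in this order. In *Eya1*cKO *Des* was again highest, at 17.1 ± 3.81 CPM per kb, and the means below it ranked as *Actc1*, *Tnnc1*, *Tnnt1*, *Acta1* and *Myl1*. In this *Eya1*cKO order, every gene below *Des* overlapped the next. *Des* made up 87.2% and 85.6% of the summed CPM of the 10 genes in the controls, and 75.7% and 76.9% in *Eya1*cKO.

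Among 174 genes of the lists examined, those whose pattern over the 4 libraries was closest to *Des* were *Jph1*, *Met* and *Gata3*. Their Euclidean distances in centred log2 CPM were 0.24, 0.28 and 0.44. For *Actc1* the closest were *Cd68*, *Id1* and *Six4* (0.46, 0.50 and 0.54), and for *Acta1* they were *Myh6*, *Myh3* and *Tnnt3* (0.58, 0.91 and 0.99). For *Tnnt1* they were *Notch3*, *Tcf12* and *Id2* (0.27, 0.37 and 0.44), and for *Myl1* *Cdh15*, *Neb* and *Ryr2* (1.28, 2.08 and 2.20). The genes nearest to *Myog* were *Kcnmb1*, *Dok7* and *Cacng1* (1.22, 1.35 and 1.80). With 4 libraries of 2 genotypes such distances are a description.

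The wider muscle program was examined in 3 lists with 102 genes, of which 63 could be tested and 9 were called, 4 higher and 5 lower in *Eya1*cKO. The called share was 14.3% of those tested, beside 9.56% of all genes, and the median log2 fold change was -0.12. Both directions were thus present among these genes. In edgeR fits without control 1 or without control 2, 0 genes were called in each of the 3 lists.

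Of 27 other myogenic regulators, 20 could be tested, 1 was called higher and 3 lower, and the median was -0.28. The 3 that fell were *Tcf3*, an E protein that pairs with myogenic factors and with many other helix-loop-helix proteins, the serum response factor gene *Srf* and *Id1*, an inhibitor of helix-loop-helix dimers. *Tcf3* was at 588 and 566 CPM in the controls and at 378 and 406 CPM in *Eya1*cKO (log2 ratio -0.56, edgeR adjusted *P* = 0.0061), and *Srf* at 330 and 309 against 216 and 215 CPM (-0.57, edgeR adjusted *P* = 0.0092). *Id1* had a log2 ratio of -0.59 (edgeR adjusted *P* = 0.031), and *Mef2d*, which encodes a MADS-box factor, rose by 0.43 with an edgeR adjusted *P* of 0.04996, at the edge of the threshold. Neither passed without the low-count filter or in the legacy fit. These genes are widely used outside muscle. *Tcf12*, another abundant E protein gene, had a log2 fold change of -0.14 (adjusted *P* = 0.37 in edgeR). The progenitor factors of the lineage were low, with *Pax7* at 33 and 13 control reads against 0 and 13 (edgeR adjusted *P* = 0.71), and *Pax3*, not tested, at 1 and 53 control reads against 0 and 0. Both were chosen for mention after their values were seen.

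Of 46 other striated sarcomere genes, 27 could be tested, 2 were called higher and 1 lower, with a median of -0.17. Those called include both directions within the tropomyosin family, which in non-muscle cells stabilises actin filaments. *Tpm1* rose from 370 ± 2.43 to 657 ± 18.1 CPM (log2 ratio 0.83, edgeR adjusted *P* = 0.0011), and *Tpm2* fell from 130 ± 3.59 to 85.9 ± 3.91 CPM (-0.60, edgeR adjusted *P* = 0.023). *Tpm3* had a log2 fold change of -0.12 (adjusted *P* = 0.38 in edgeR). *Myom3*, a myomesin of the sarcomere's M-band, had 8 and 12 control reads against 97 and 249, and rose by 4.95 on the log2 scale (SE 1.05, edgeR adjusted *P* = 0.023). Of the skeletal myosin heavy chains, the fast forms *Myh2* and *Myh4* had 0 reads in all libraries, *Myh1* and the perinatal *Myh8* at most 3 in any library, and the embryonic *Myh3* at most 22. The slow and cardiac form *Myh7* was higher, with 1 and 52 control reads against 120 and 46, or 0.0286 and 1.39 CPM against 5.31 and 2.62 CPM. The genotypes did not overlap in CPM, and its log2 ratio of 2.49 (SE 1.01) missed the threshold (edgeR adjusted *P* = 0.16). These heavy chains were chosen after their values were seen.

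Of 29 genes of muscle excitation, the triad and energy metabolism, 16 could be tested, with a median of 0.30. *Eno3*, the muscle enolase, had 1075 and 970 control reads against 176 and 165, and fell by 1.73 on the log2 scale (SE 0.32, edgeR adjusted *P* = 0.021). With the replicate number of the labels as a block, edgeR called 0 genes of this list. *Dysf*, which encodes the membrane repair protein dysferlin, rose from 56.2 ± 0.393 to 92.2 ± 19.2 CPM (log2 ratio 0.73, edgeR adjusted *P* = 0.043), a call lost without the low-count filter and in the legacy fit. *Cacnb1*, a calcium channel subunit gene, and *Dmd*, the dystrophin gene, had the next highest counts, with log2 ratios of -0.10 and 1.09 (edgeR adjusted *P* = 0.84 and 0.059). *Ckm*, the muscle creatine kinase gene, had 9 and 51 control reads against 0 and 0, and was not tested; it was chosen after its values were seen.

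Some low muscle genes had reads in the controls alone. Of the 27 genes of these 3 lists with 20 to 100 reads in the controls together, 10 had no read in either *Eya1*cKO library, or 37.0%, and of all 5470 genes with as many control reads 1158 had none, or 21.2%. Genes picked by their control reads can show only a loss, and the opposite pick was not counted. *Tmod4*, a tropomodulin that caps actin filaments, chosen from these after its values were seen, had 30 and 65 control reads against 0 and 0. It passed the low-count filter through its control reads alone and did not pass the test (adjusted *P* = 0.11 in edgeR). Its control mean was 8.54-fold above the mean level of 3 counts in the *Eya1*cKO libraries, a ratio of means that single libraries can fall below. The depth and the share of reads on no gene differ between the genotypes as given above. Genes with a read numbered 26486 and 27091 in the controls and 21455 and 20538 in *Eya1*cKO. Reads not aligned made up 6.32% and 6.69% of recorded reads in the controls and 12.9% and 12.7% in *Eya1*cKO. The part of these differences in such zeros was not tested.

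**Figure D3:**
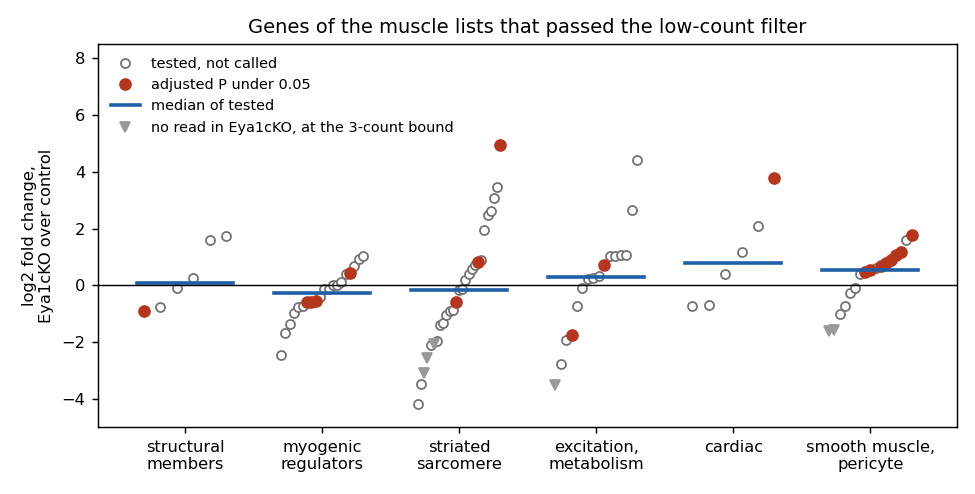
Log2 fold change (*Eya1*cKO over control, vertical axis) of each tested gene in the structural members and 5 further lists, ordered within a list by value, with red points for an adjusted *P* under 0.05, open points for other tested genes, grey triangles for genes without a read in *Eya1*cKO drawn at the 3-count bound, and a blue line for the median. The skeletal lists spread on both sides of 0, with medians from -0.28 to 0.30. The smooth muscle and pericyte list also spreads on both sides, with 11 tested genes above 0 and 6 below, and all 8 of its called genes are above 0.

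Other contractile cell types were examined because *Des*, *Actc1* and *Tnnc1* are shared with them. Of 12 cardiac markers 6 could be tested and 1 was called, *Tbx5*, a cardiac and limb transcription factor, with 27 and 11 control reads against 91 and 201 (log2 ratio 3.78, SE 0.95, edgeR adjusted *P* = 0.048). This call was lost without the low-count filter and in the legacy fit. The most abundant cardiac markers, *Tnni3* and *Ryr2*, had log2 ratios of -0.73 and 2.09 (edgeR adjusted *P* = 0.54 and 0.14). The cardiac factor *Nkx2-5*, named after its values were seen, had 0 reads in every library, and the summed cardiac markers ranged from 8.68 to 10.9 CPM in the controls and from 13.7 to 29.4 CPM in *Eya1*cKO. Most of the sum in *Eya1*cKO 2 came from *Ryr2* and *Tbx5*, at 12.5 and 11.5 CPM, whereas *Tnni3* was at 1.08 CPM there, below its 4.21 and 6.36 CPM in the controls.

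Smooth muscle and pericyte markers that were called moved in the direction opposite to *Des*. Of 18 markers 17 could be tested, 8 were called and all 8 were higher in *Eya1*cKO, with a median log2 fold change of 0.55 in the tested genes. With the replicate number of the labels as a block, edgeR called 2 of the markers and 621 genes in all. Without regard to the test, 11 of the 17 were higher and 5 lower in both *Eya1*cKO libraries than in both controls. Of all genes tested, 55.3% did not overlap, 30.0% in the lower direction, and 9.56% were called, 5.15% as higher. Their summed level was 970 and 1021 CPM (controls) against 1523 and 1399 CPM (*Eya1*cKO). Without control 1 or without control 2, edgeR called 0 of these markers and 23 genes in all. *Pdgfrb*, the pericyte receptor for platelet-derived growth factor, rose from 147 ± 9.15 to 276 ± 5.79 CPM (log2 ratio 0.91, edgeR adjusted *P* = 0.0027). *Synpo2*, an actin-binding protein of contractile cells, had the largest increase of the 8, from 10.6 ± 0.0328 to 36.7 ± 1.65 CPM (log2 ratio 1.79, edgeR adjusted *P* = 0.0083).

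The proteoglycan gene *Cspg4*, the myosin light chain kinase gene *Mylk*, the regulatory light chain gene *Myl9* and *Cald1*, which encodes caldesmon, rose by 0.81, 0.68, 1.17 and 0.47 on the log2 scale (edgeR adjusted *P* = 0.0091, 0.0099, 0.011 and 0.018). *Acta2*, the smooth muscle paralog of *Actc1* and *Acta1*, was at 16.8 and 19.9 CPM in the controls against 38.9 and 39.3 CPM (log2 ratio 1.09, edgeR adjusted *P* = 0.030), and was named after its values were seen. It passed neither without the low-count filter nor in the legacy fit. Of the 5 markers that were lower in both *Eya1*cKO libraries, the contractile genes *Actg2* (smooth muscle gamma-actin) and *Cnn1* (calponin), named after their values were seen, had 13 and 20 and 14 and 20 control reads and none in *Eya1*cKO. Their control means were 2.98-fold and 3.08-fold above the mean level of 3 counts in the *Eya1*cKO libraries. Both passed the low-count filter through their control reads alone, and neither passed the test (edgeR adjusted *P* = 0.11 for both). *Notch3* did not pass, at -0.25 (edgeR adjusted *P* = 0.27), and the late smooth muscle markers *Myh11* and *Tagln*, also named afterwards, had log2 ratios of -0.73 and -1.02 (edgeR adjusted *P* = 0.48 and 0.47).

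**Figure D4:**
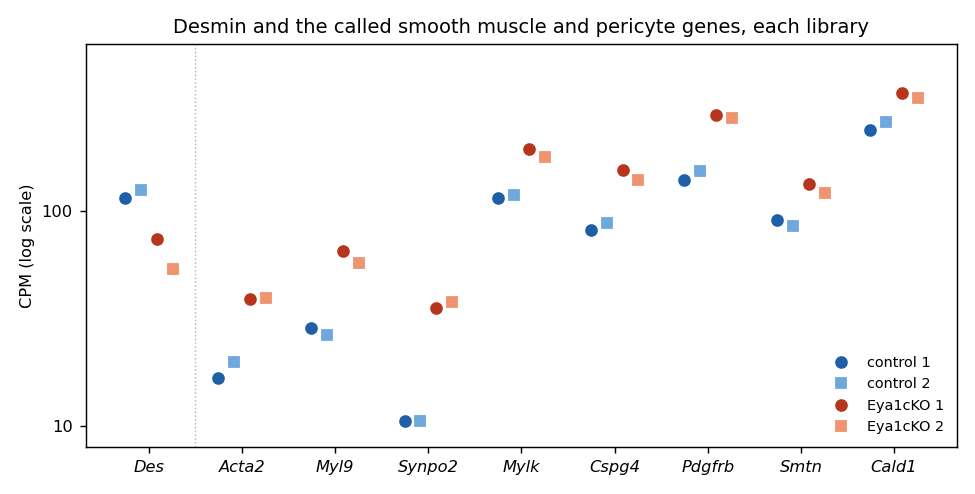
Level in CPM (log scale) of *Des*, left of the dotted line, and of the 8 called smooth muscle and pericyte genes in each library, with symbols for libraries as in the plot of all 10 genes. *Des* is lower in both *Eya1*cKO libraries than in both controls, and the 8 other genes are higher.

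Markers of other cell types moved with genotype as well. All 8 nephron progenitor markers were lower, and 7 of 7 adrenocortical and 8 of 8 chromaffin and sympathetic markers were higher in *Eya1*cKO, the latter groups from 12.1 to 19.1 and from 6.01 to 8.71 CPM in the controls to 693 to 729 and 554 to 586 CPM. Of the podocyte markers 6 of 7 were called higher, of the endothelial markers 8 of 8, and of the renal stroma markers 5 of 8, with 1 lower. The ureteric bud markers had 2 of 8 called lower and the Schwann cell markers 1 of 3 tested called higher. The immune cell markers summed to between 127 and 140 CPM in every library, and all 6 erythroid markers were below the filter. The part of any of these cell types in the values of *Des*, *Myog* or *Myf6* was not tested.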

How the data were processed

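Kidney tdTomato+ cells were profiled in 4 libraries. Per the methods and the labels, the authors mapped single-end reads of 75 bases from strand-specific SMARTer libraries to mm10 with HISAT2 and counted them on Ensembl release 90 genes with HTSeq-count; the deposited values are raw counts, and the strand setting is not given in the sources used here. The summary tallies below the gene rows stayed out of totals and tests. Symbols, positions and exonic lengths came from GENCODE M21 (GRCm38, the build of mm10) and matched 52403 of 52636 gene identifiers.

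Genotype was tested in edgeR 4.0.16 under R 4.3.3 (filterByExpr with its minimum count of 10, TMM, quasi-likelihood test on all 4 libraries, legacy = FALSE, Benjamini-Hochberg adjustment at 0.05), and all adjusted *P* values are from this fit unless another is named. The SE of a log2 ratio was obtained by dividing its size by the root of the F statistic. DESeq2 1.42.0 was an alternative. Replicates of a genotype differed beyond sampling noise (chi-square per degree of freedom 9.68 and 49.7). The members and gene lists were chosen with earlier results of these data known. Genes named are the 10 members, in each muscle list up to 5 called genes per direction and the 3 with most reads, up to 3 genes of the lists nearest in pattern to a member, *Eya1*, genes whose sequence overlaps a member, and those said to be chosen afterwards. Alternatives were other scalings, filters, edgeR's legacy and robust fits, a replicate block and leaving out each library. Groups of 2 libraries allow no test for an outlying sample. The genes with patterns nearest to *Tnnc1* and *Myf6* are not reported here.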

Additional observations from a re-analysis of the deposited data

How the results depend on the processing

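The log2 fold changes of *Actc1*, *Myl1*, *Acta1*, *Tnnc1* and *Tnnt1* kept their sign and stayed short of the threshold in each fit on all 4 libraries that gave a value. On leaving out single libraries the ranges were -1.17 to -0.71 for *Des*, -1.07 to -0.36 for *Actc1*, 0.01 to 5.01 for *Myl1*, -2.27 to 0.94 for *Acta1*, 0.15 to 2.15 for *Tnnc1* (past the threshold without *Eya1*cKO 2) and -0.48 to 0.13 for *Tnnt1*, which was 0.10 without control 2 and 0.13 without *Eya1*cKO 2. *Des* missed the threshold in the legacy fit (-0.91, adjusted *P* = 0.051), with the replicate number of the labels as a block (-0.89, adjusted *P* = 0.081) and without either control, where 1 library is assumed to vary like the other genotype; the cause was not tested. Members called then numbered 0 in the legacy fit, 0 with the block and 0 to 3 with a library left out (*Des* with *Myf6* without *Eya1*cKO 1, and *Des* with *Tnnc1* and *Myog* without *Eya1*cKO 2), where the genotype with 1 library takes its spread from the other.

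Genes called over the whole table (1820) became 1055 without the low-count filter, 3102 with DESeq2, 1096 in the legacy fit and 621 with the replicate block, and 23 to 7925 with a library left out, fewest without a control and most without an *Eya1*cKO library. Without the low-count filter the called myogenic regulators became 2, the excitation and metabolism genes 1 and the cardiac markers 0. With DESeq2 the sarcomere genes became 5, the excitation and metabolism genes 5 and the cardiac markers 2. In the legacy fit the regulators became 2, the excitation and metabolism genes 1 and the cardiac markers 0. With the replicate block they became 2, 0 and 0, and the smooth muscle and pericyte markers 2. With a library left out the counts ran from 0 to 8 for regulators, 0 to 10 for sarcomere genes, 0 to 9 for excitation and metabolism genes, 0 to 4 for cardiac markers and 0 to 11 for smooth muscle and pericyte markers.

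Libraries of the same number did not deviate together (r = 0.0062 over 19041 genes), so the numbers were not taken to pair them. TMM replaced by DESeq2's size factors or by library totals alone turned no direction of a tested member.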
